A study of Mus musculus with 3186 samples.

Results

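The caveola and fenestra genes are 9 genes, found by symbol among the 19937 rows of the count tables of the study: Cav1, Cav2, Ptrf (now Cavin1), Sdpr (now Cavin2), Prkcdbp (now Cavin3), Ehd2, Ehd4, Pacsin2 and Plvap. They were described in single brain cells of C57BL/6 adults, 12 to 15 weeks old, with 1 Smart-seq2 library (full-length complementary DNA sequenced per cell) in each of 3186 wells. Fibroblast-like cells came almost entirely from 257 cells of Pdgfra-H2BGFP mice, which carry a nuclear reporter of the platelet-derived growth factor receptor alpha gene and which also yielded oligodendrocyte-like cells. Smooth muscle and pericyte-like cells came from 1484 cells of Pdgfrb(BAC)eGFP/NG2dsRed mice, in which mural cells carry both reporters, and endothelial cells from 1445 cells of Cldn5(BAC)eGFP mice, a line driven by the regulatory region of a tight junction gene. No treatment is named for any of the 3 lines, all are of the same strain, and each sort selected the cells that had the reporter at the time. Since no animal is named in the labels, a line counts as a single sample and no p-value was computed. The spread given is that between the 4 plates of the endothelial line (EC3 to EC6), the 4 of the mural line (Mural3 to Mural6) and the 2 of the Pdgfra-H2BGFP line (Pdgfra1 and Pdgfra2), which may be technical or between animals. Wherever 2 classes come from different lines, class, line and plates cannot be told apart.

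Cells were grouped without the 9 genes and named from markers, which gave 88 fibroblast-like, 175 smooth muscle-like, 360 arterial-like, 297 venous-like, 781 capillary-like, 1050 pericyte-like, 150 oligodendrocyte-like and 25 microglia-like cells. Cells held 99905 to 1606954 reads in genes, with medians of 625675 reads in fibroblast-like, 377082 in smooth muscle-like, 367818 in arterial-like, 352099 in venous-like, 331114 in capillary-like and 334761 in pericyte-like cells. The names were given from markers, so the marker sums below describe the classes and are no check of the names. Summed levels of the 8 endothelial markers were 39099, 47989 and 38004 CPM (reads of a gene per 1000000 reads in genes) in arterial, venous and capillary-like cells. In fibroblast, smooth muscle and pericyte-like cells they were 145, 10.3 and 197 CPM. In arterial, venous and capillary-like cells, the 7 arterial markers summed to 3482, 58.2 and 228 CPM. The 7 venous markers summed to 696, 3693 and 722 CPM in these classes, and the 7 capillary markers to 12703, 16885 and 19205 CPM. The capillary set thus separated these classes least. The 8 pericyte markers summed to 65604 CPM in pericyte-like cells, and still to 5041 CPM in fibroblast-like and 4047 CPM in smooth muscle-like cells, with none of them at 0. Of the fibroblast-like wells, 24 of 88 also carried markers of another class above the limit used here for mixed wells, and of the microglia-like wells 14 of 25 did. Another 260 cells lay in groups without a name, among them 133 mural cells led by Ephx3.

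Caveolae are flask-shaped pits of the plasma membrane. Caveolins form the membrane scaffold, cavins coat it from the cytoplasm, and proteins of the EHD and pacsin families hold and bend the neck of the pit. In endothelium caveolae carry cargo across the cell and hold signalling enzymes, and in smooth muscle they serve calcium handling and buffer membrane tension. Endothelium of the blood-brain barrier is known for few caveolar vesicles and for the absence of fenestrae, the small diaphragm-covered pores of leaky vessels. Plvap is the protein of those diaphragms.

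The 2 caveolin genes are neighbours on the same strand of chromosome 6 (mm10, positions from GENCODE M21): Cav2 spans chr6:17281185-17289115 and Cav1 spans chr6:17306335-17341452, with 17220 bases between them. The cavin genes lie apart, Ptrf at chr11:100956733-100970887 on the minus strand, Sdpr at chr1:51289126-51302960 on the plus strand and Prkcdbp at chr7:105480083-105482300 on the minus strand. Prkcdbp overlaps Gm45667, a gene on the opposite strand, and since the labels do not state whether counting used strand, reads of that pair may be mixed. The neck genes are Ehd2 (chr7:15946958-15967567, minus strand), Ehd4 (chr2:120089175-120154606, minus strand) and Pacsin2 (chr15:83375607-83464606, minus strand), and Plvap lies at chr8:71497765-71511752 on the minus strand.

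Promoter windows of RefSeq genes (GRCm38.p6, which has the coordinates of mm10) were matched for 7 of the 9 genes. Each runs from 250 bases before to 50 bases after a RefSeq start. The Ptrf window lies wholly inside the GENCODE span of Ptrf given above. By those coordinates it is downstream of the start of the gene. Those of the caveolins and of Ptrf and Sdpr are shown because caveolins and cavins build the coat and these 4 had a matched window. Capitals mark every match, on either strand, to 4 motifs. The core of sites for ETS factors was searched as GGAAG, a short run that is common in any sequence. The core of sites for KLF factors was searched as CACCC. The GC box, which Sp1 and KLF factors bind, was searched as GGGCGG. The TATA box was searched as TATAAA.
Cav1, chr6:17306085-17306384, plus strand: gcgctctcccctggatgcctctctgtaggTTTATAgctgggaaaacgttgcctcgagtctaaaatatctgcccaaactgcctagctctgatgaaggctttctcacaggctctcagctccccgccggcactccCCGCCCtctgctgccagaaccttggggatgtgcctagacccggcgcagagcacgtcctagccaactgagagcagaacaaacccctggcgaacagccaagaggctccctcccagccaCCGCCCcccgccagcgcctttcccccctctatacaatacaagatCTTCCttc
Cav2, chr6:17280935-17281234, plus strand: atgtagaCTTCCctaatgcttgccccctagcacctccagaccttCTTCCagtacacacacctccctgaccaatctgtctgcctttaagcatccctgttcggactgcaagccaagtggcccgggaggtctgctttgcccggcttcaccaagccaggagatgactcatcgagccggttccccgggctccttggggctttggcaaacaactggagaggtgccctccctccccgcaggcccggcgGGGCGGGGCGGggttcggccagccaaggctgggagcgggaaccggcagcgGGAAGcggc
Ptrf, chr11:100970568-100970867, minus strand: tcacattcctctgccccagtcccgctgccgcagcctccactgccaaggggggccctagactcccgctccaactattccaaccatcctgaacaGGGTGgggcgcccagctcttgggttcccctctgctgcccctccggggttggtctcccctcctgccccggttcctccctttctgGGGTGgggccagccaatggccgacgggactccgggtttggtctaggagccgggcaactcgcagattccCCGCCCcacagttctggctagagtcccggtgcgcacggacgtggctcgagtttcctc
Sdpr, chr1:51288876-51289175, plus strand: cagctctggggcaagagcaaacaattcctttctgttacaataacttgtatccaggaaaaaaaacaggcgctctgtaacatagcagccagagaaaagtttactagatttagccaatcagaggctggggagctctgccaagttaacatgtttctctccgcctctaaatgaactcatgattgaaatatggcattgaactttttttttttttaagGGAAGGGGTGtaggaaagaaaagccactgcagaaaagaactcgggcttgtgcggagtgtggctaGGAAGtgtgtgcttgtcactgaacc
Cav1 and Cav2 held 1 and 3 ETS cores and 2 GC boxes each. Cav1 alone of the 7 windows held a match to TATAAA. It is on the other strand and near the upstream end of the window, so it is a match of letters and is not called a TATA box here. Ptrf held 2 KLF cores and 1 GC box and no ETS core, while Sdpr held 2 ETS cores and 1 KLF core and no GC box, and its first ETS core and its KLF core abut. Over all 32851 windows, 71.4% held an ETS core, 57.5% a KLF core, 35.7% a GC box and 13.6% a match to TATAAA, so most of these matches are common. The CArG box of smooth muscle genes, in 1.63% of all windows, was in none of the 7.

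Levels are given as CPM of the pooled cells of a class, and compared between classes as log2 ratios of CPM + 1. A gene was counted in a comparison if 1 side had at least 5 CPM, and called higher or lower at 2-fold or more. Counting intervals at 95% (exact Poisson, covering counting error only, for reads without molecular tags) were narrow, for instance 750.8 to 764 CPM for Cav1 in smooth muscle-like and 8.09 to 8.70 CPM in pericyte-like cells, so the plates give the larger spread. The plot of levels by class sets out all 9 genes.

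**Figure D1:**
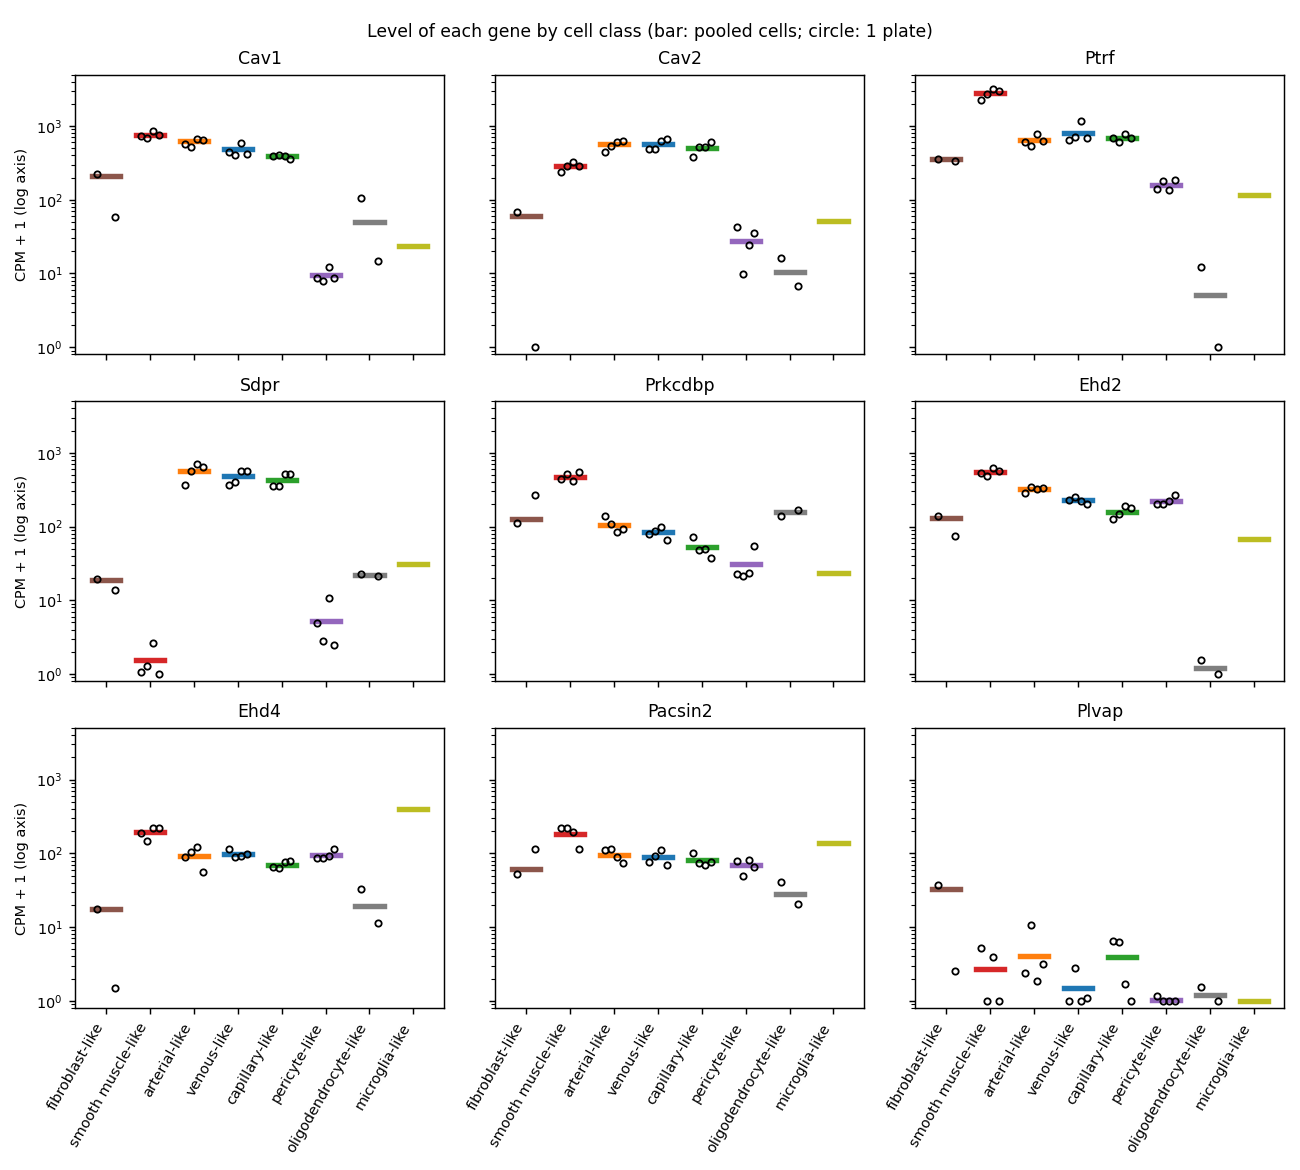
Level of each of the 9 genes in 8 cell classes (vertical axis: CPM + 1 on a log axis; horizontal axis: class; bar: all cells of the class; circle: 1 plate with at least 10 cells of the class, in plate order from left to right). Cav1 lies between 388 and 757 CPM in smooth muscle and the 3 endothelial classes and at 8.39 CPM in pericyte-like cells, Sdpr is high in the endothelial classes alone, and Plvap is highest in the fibroblast-like cells of 1 plate.

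Cav1, the caveolin without which non-muscle cells form no caveolae, was highest in smooth muscle-like cells, at 757 CPM, followed by arterial (624 CPM), venous (480.0 CPM) and capillary-like cells (388 CPM). Fibroblast-like cells had 207 CPM and pericyte-like cells 8.39 CPM. By plate, smooth muscle-like cells ranged over 692 to 844 CPM, arterial over 518 to 669, venous over 401 to 596 and capillary over 362 to 399.6 CPM. The first 3 do not separate into neat steps: the plates of arterial and venous cells overlapped, whereas those of smooth muscle lay above all others and every arterial and venous plate lay above every capillary one, the lowest venous plate by little (400.8 against 399.6 CPM). Cav2, which co-assembles with Cav1, had another order: 561 CPM in both arterial and venous-like cells, 502 CPM in capillary-like, 289 CPM in smooth muscle-like, 59.5 CPM in fibroblast-like and 26.9 CPM in pericyte-like cells. The plates of the 3 endothelial classes overlapped for Cav2, and all lay above those of smooth muscle. Per kilobase of exon, which allows genes to be compared, Cav2 over Cav1 was 0.394 in smooth muscle-like, 0.930 in arterial-like, 1.21 in venous-like and 1.34 in capillary-like cells.

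Arterial-like cells were set against capillary-like cells because both lie in the same line and plates. Of 8 genes counted, 2 were called higher and none lower, where 8.87% of the 10101 genes counted were called in either direction, 5.65% higher and 3.22% lower. These were Prkcdbp, the cavin that binds protein kinase C delta, and Ehd2, the ATPase that forms a ring at the neck and keeps caveolae at the surface. Prkcdbp had 137, 106, 83.8 and 91.1 CPM in arterial-like cells of plates EC3, EC4, EC5 and EC6, against 70.8, 47.6, 48.7 and 36.7 CPM in capillary-like cells of the same plates. Every arterial plate was above every capillary plate, the log2 ratio was 1.02, and within plates it ran over 0.77 to 1.29. Ehd2 had 283, 348, 323 and 331 CPM in arterial-like cells of EC3 to EC6, against 127, 147, 189.5 and 175 CPM in capillary-like cells. Again no plates overlapped (log2 ratio 1.01, within plates 0.77 to 1.23). Both ratios lie just above 2-fold, and the count fell to 1 without plate EC3, 0 without EC4 and 1 without EC6. Under the settings that ended a call, the log2 ratio was 0.81 to 0.99 for Ehd2 and 0.78 to 0.98 for Prkcdbp, still positive.

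Cav1 was the third gene whose arterial plates all lay above the capillary ones, with 566, 518, 669 and 642 CPM in arterial-like cells of EC3 to EC6, against 395, 399.6, 392 and 362 CPM in capillary-like cells. Its log2 ratio of 0.68 stayed within 2-fold on each plate (0.37 to 0.83). Plates did not overlap for 10.3% of all genes counted. The coat protein Ptrf, which all caveolae need, showed no such step, with 642 CPM in arterial-like and 688 CPM in capillary-like cells (log2 ratio -0.10, within plates -0.19 to -0.03). Sdpr (0.40), Ehd4 (0.37), Pacsin2 (0.22) and Cav2 (0.16) had small positive ratios with overlapping plates. The median log2 ratio of the 8 genes was 0.39, beside 0.01 for all genes counted. One capillary-like sub-cluster of 152 cells had few genes (median 1590.5) and 1184 CPM of Ptrf. Without it the remaining 629 capillary-like cells had 591 CPM of Ptrf, 361 CPM of Cav1, 150.1 CPM of Ehd2 and 48.3 CPM of Prkcdbp, and its part in the levels beyond these values was not tested.

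Between venous-like and capillary-like cells none of 8 genes was called, against 7.23% of the 10053 genes counted in either direction, 4.01% higher and 3.22% lower. Cav1 (480.0 against 388 CPM, log2 ratio 0.31), Ehd2 (226 against 158 CPM, 0.51) and Ehd4 (97.1 against 69.2 CPM, 0.48) had every venous plate above every capillary plate, which held for 7.57% of all genes. Prkcdbp had the largest ratio, 0.67, but its plates of 64.0 to 99.1 CPM in venous-like and 36.7 to 70.8 CPM in capillary-like cells overlapped. Ptrf had 1173 CPM in venous-like cells of plate EC5 and 645 to 707 CPM on the other 3, against 609 to 790.4 CPM in capillary-like cells, so its ratio of 0.24 leans on that plate. Set against each other, arterial-like and venous-like cells again gave no call among 8 genes, where 12.3% of the 10205 genes counted were called in either direction, 6.63% higher and 5.67% lower. Ehd2 was the only gene with plates apart (283 to 348 CPM in arterial-like, 203 to 251 CPM in venous-like cells, log2 ratio 0.50, within plates 0.32 to 0.70), which held for 11% of all genes. Prkcdbp and Ehd2 thus lay in the order arterial, venous, capillary in the pooled levels, with neighbours overlapping for Prkcdbp and apart for Ehd2.

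Read as the share of cells with at least 1 read, capillary-like cells had the lowest value of the 3 zones for all 8 caveola genes. This also held after every cell was thinned to 99000 reads. Capillary-like cells also held fewer genes of any kind, with a median of 2432, against 2826 in arterial-like and 2830 in venous-like cells. For Ehd2 the thinned share was 63.6% in arterial-like, 53.2% in venous-like and 34.8% in capillary-like cells, and 70.8%, 60.9% and 45.8% before thinning. For Prkcdbp it was 51.4%, 43.4% and 23.8%, and for Cav1 61.7%, 63.0% and 44.0%. The grid of thinned shares by class shows these values. Oligodendrocyte-like cells, which are not known to build caveolae, had low shares for these genes, though in another line and on other plates than endothelial and mural cells. After thinning, 6.0% of them had a read of Cav1, 4.0% of Cav2, 0.667% of Ptrf and 1.33% of Ehd2. Their median depth before thinning was 509438 reads.

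**Figure D2:**
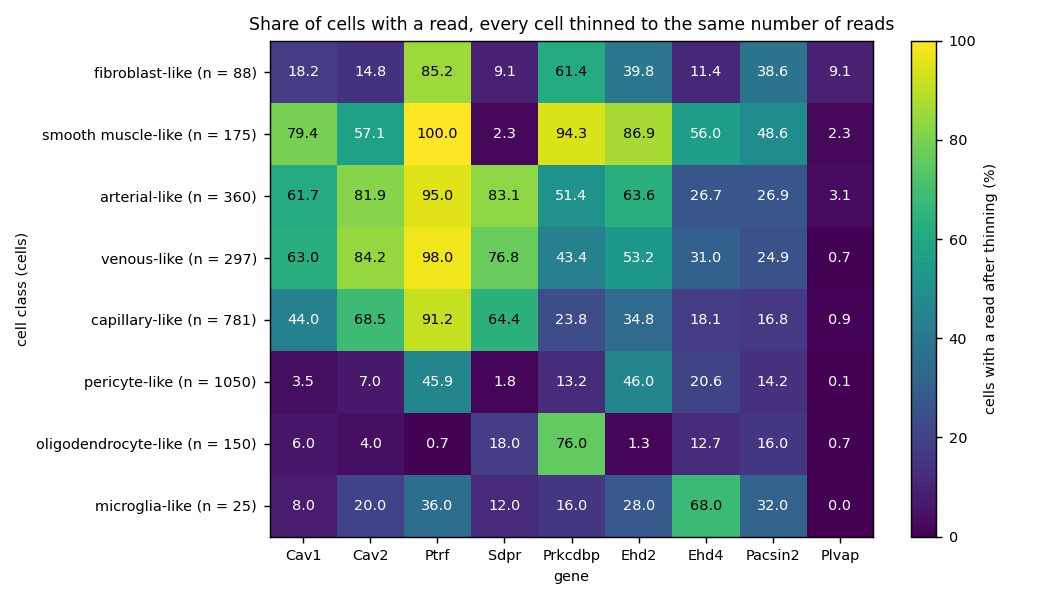
Share of cells with at least 1 read of each gene (columns) in each cell class (rows, n in cells), in percent, after each cell was thinned to 99000 reads. Ptrf was read in 100.0% of smooth muscle-like and 45.9% of pericyte-like cells, and the Cav1 share of 3.5% in pericyte-like cells lies below the 6.0% of oligodendrocyte-like cells.

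Endothelial-like cells, with the 3 zones pooled, had more of both caveolins and of the 3 cavins than pericyte-like cells, from 2.39-fold for Prkcdbp to 112-fold for Sdpr, and the 3 neck genes were within 2-fold. Of 8 genes counted, 5 were called higher and none lower, where 35.1% of the 10972 genes counted were called in either direction, 16.1% higher and 19% lower. Sdpr, a cavin known to shape tubules and to load Ptrf onto membranes, had the largest ratio, with 358, 410.3, 581 and 558 CPM in endothelial-like cells of EC3 to EC6, against 3.84, 1.82, 9.87 and 1.46 CPM in pericyte-like cells of Mural3 to Mural6. No plate of one came near the other, and the log2 ratio was 6.51. Cav1 had 449.9, 425, 516 and 461 CPM in endothelial-like cells, against 7.72, 6.79, 11.1 and 7.76 CPM in pericyte-like cells (log2 ratio 5.65). Cav2 (4.25), Ptrf (2.14) and Prkcdbp (1.23) were also called higher with plates apart, as 48.3% of all genes had plates apart. Prkcdbp on the plate nearest the endothelial range had 53.2 CPM in pericyte-like cells of Mural6, against a lowest endothelial plate of 58.7 CPM, and its ratio was 0.82 when the Ephx3-led mural cells were counted as pericyte-like.

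Ehd2 was within 2-fold in the same pair, with 188, 215, 235 and 229.5 CPM in endothelial-like cells of EC3 to EC6 and 199.7, 202, 221 and 264 CPM in pericyte-like cells of Mural3 to Mural6. The ranges overlapped almost fully, at a log2 ratio of -0.05. Ehd4, an EHD protein of endosomes and of the caveolar neck, had 80.6 CPM in endothelial-like cells, against 94.6 CPM in pericyte-like cells (-0.23), and Pacsin2, a membrane-bending protein of the neck, 85.1 and 67.7 CPM in the same order (0.33), with overlapping plates for both. Pericyte-like cells thus held neck genes at endothelial levels with Cav1 at 8.39 CPM: per kilobase, Ehd2 over Cav1 was 18.0 in pericyte-like cells, against 0.309 in endothelial-like cells. Ptrf was at 159 CPM and in 58.8% of pericyte-like cells (95% exact binomial interval 55.7% to 61.8%, plates 55.2% to 62.8%). Its share in oligodendrocyte-like cells, of another line, was lower, at 4.0% in all and 0.855% to 15.2% by plate. For Cav1, 9.33% of pericyte-like cells had a read (7.64% to 11.3%). The share of oligodendrocyte-like cells was 8.67% in all, but 24.2% on Pdgfra1 (33 cells) and 4.27% on Pdgfra2 (117 cells, 1.40% to 9.69%), so the reading of the pericyte share against it depends on the plate. After thinning, the share was 3.52% in pericyte-like cells, against 12.1% and 4.27% in oligodendrocyte-like cells of Pdgfra1 and Pdgfra2. The oligodendrocyte-like cells came from another line and other plates, and 87.0% of their 4171 Cav1 reads lay in 3 wells. This comparison therefore cannot decide whether pericyte-like cells had Cav1 above background. Of the 2913 Cav1 reads in the 1050 pericyte-like cells, 38.4% came from 3 wells.

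Within the mural line, which puts both classes on the same plates, smooth muscle-like cells were higher than pericyte-like cells for all 7 genes counted, by 2.08-fold (Ehd4) to 90.3-fold (Cav1), where 30.5% of the 10810 genes counted were called in either direction, 12.9% higher and 17.5% lower. Ptrf had 2232, 2753, 3138 and 2950.3 CPM in smooth muscle-like cells of Mural3 to Mural6, against 137, 176, 134 and 184 CPM in pericyte-like cells of the same plates. The classes were apart on each plate (log2 ratio 4.13, within plates 3.96 to 4.54). Cav1 had 731, 692, 844 and 744 CPM in smooth muscle-like cells and 7.72, 6.79, 11.1 and 7.76 CPM in pericyte-like cells, a log2 ratio of 6.34 (6.13 to 6.47). Prkcdbp had 435, 514, 408 and 547 CPM in smooth muscle-like cells and 21.5, 20.6, 22.2 and 53.2 CPM in pericyte-like cells, a ratio of 3.93 (3.34 to 4.57). Cav2 followed at 3.37. The neck genes were closer: Pacsin2 at 1.43, Ehd2 at 1.30 and Ehd4 at 1.05, the last within 0.74 to 1.27 on single plates, at 0.96 without plate Mural5 and at 0.93 with the Ephx3-led cells among the pericyte-like ones. Plates were apart for all 7, as for 30.3% of all genes counted, and the median log2 ratio was 3.37, beside -0.14 for all genes. The plot of mural levels shows these steps.

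**Figure D3:**
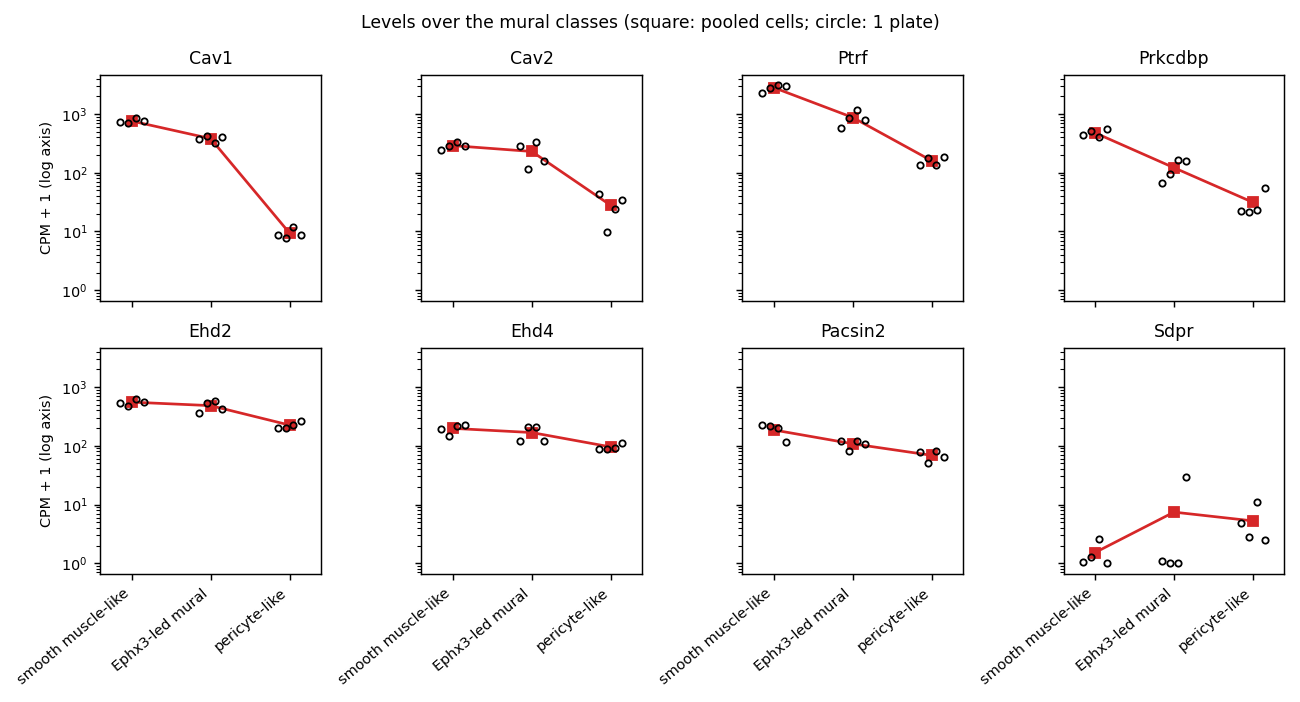
Levels of 8 caveola genes in 3 mural groups (vertical axis: CPM + 1 on a log axis; square: all cells of the group, joined by lines to guide the eye; circle: 1 plate, in plate order). Cav1 is at 757, 379.8 and 8.39 CPM in smooth muscle-like, Ephx3-led and pericyte-like cells, Ehd2 and Ehd4 move less, and Sdpr is under 10 CPM in all 3 groups when plates are pooled.

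The 133 Ephx3-led mural cells, which no marker set named, lay between the other mural groups for 7 of the 9 genes. Their 8 smooth muscle markers summed to 11397 CPM, against 63933 CPM in smooth muscle-like and 4683 CPM in pericyte-like cells. Their 8 pericyte markers summed to 37282 CPM, against 4047 and 65604 CPM in those classes. Cav1 had 375, 422, 323 and 412 CPM in them on Mural3 to Mural6, below all plates of smooth muscle-like cells (log2 ratio of smooth muscle-like over Ephx3-led cells 0.99) and above all plates of pericyte-like cells (5.34). Ptrf had 588, 868, 1163 and 789.9 CPM, at a ratio of 2.45 over pericyte-like cells, and smooth muscle-like cells were 1.69 above them. Cav1 was unevenly spread over these wells. A Cav1 read was found in 41 of the 75 wells with at least 100 CPM of the actin gene Acta2, and in 9 of the 58 below. Across the 133 wells Spearman's rho with Acta2 was 0.44 for Cav1 and 0.51 for Ptrf, as a description only, since the wells share plates. Across the 175 smooth muscle-like wells, all of which had at least 100 CPM of Acta2, rho for Cav1 was -0.15, and across pericyte-like wells 0.02.

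The cavins split smooth muscle-like from endothelial-like cells. Of 8 genes counted, 5 were called higher and 1 lower in smooth muscle-like cells, where 39.6% of the 11077 genes counted were called in either direction, 20.1% higher and 19.6% lower. Prkcdbp (476 against 72.5 CPM, log2 ratio 2.70) and Ptrf (2802 against 702 CPM, 1.99) were higher in smooth muscle-like cells. Sdpr was the lower one, with 0.0710, 0.269, 1.59 and 0 CPM in smooth muscle-like cells of Mural3 to Mural6, against 358 to 581 CPM in endothelial-like cells (log2 ratio -8.29). In all, 34 reads of Sdpr were counted over the 175 smooth muscle-like cells, 28 of them in 1 well, and 4.0% of the cells had a read, fewer than the 22.7% of oligodendrocyte-like cells. The neck genes Ehd2 (552 against 216 CPM, 1.35), Ehd4 (197 against 80.6 CPM, 1.28) and Pacsin2 (185 against 85.1 CPM, 1.11) were higher, while Cav1 (0.68) and Cav2 (-0.88) stayed within 2-fold. Plates were apart for all 8, as for 40.1% of all genes. Per kilobase, the caveola genes of smooth muscle-like cells were led by Ptrf at 781 CPM per kb, 49.8% of the sum over the 8 genes, ahead of Prkcdbp at 287 and Cav1 at 219.9 CPM per kb. In arterial-like cells Sdpr (186), Cav1 (181), Ptrf (179) and Cav2 (168 CPM per kb) were nearly equal. Sdpr over Ptrf per kilobase was 2.2e-04 in smooth muscle-like cells, 1.04 in arterial-like and 0.735 in capillary-like cells.

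Fibroblast-like cells, found around vessels, held the caveola genes in yet another makeup. Against pericyte-like cells, 6 of 9 genes were called higher and 1 lower, where 34.4% of the 11507 genes counted were called in either direction, 19.4% higher and 15.1% lower. Cav1 had 226 and 57.1 CPM in fibroblast-like cells of Pdgfra1 (59 cells) and Pdgfra2 (28 cells), against 6.79 to 11.1 CPM on the plates of pericyte-like cells (log2 ratio 4.47). The 2 plates differed much from each other, yet both lay above all pericyte plates. Ptrf was steadier, with 354 and 331 CPM on the 2 fibroblast plates, against 134 to 184 CPM in pericyte-like cells (1.15), and Prkcdbp had 109.9 and 265 CPM, against 20.6 to 53.2 CPM (2.01). Sdpr (17.5 against 4.27 CPM, 1.82), Cav2 (59.5 against 26.9 CPM, 1.11) and Plvap (5.00) were also called higher. Sdpr was read in 8 of 88 fibroblast-like cells, and 85.4% of its 1020 reads came from 3 wells. Without the reads of these wells it was at 2.56 CPM, below the pericyte-like level. With a pseudocount of 10 CPM the ratios of Sdpr (0.95) and Cav2 (0.91) were no longer past 2-fold. Cav2 had 66.6 CPM on Pdgfra1 and no read in the 28 cells of Pdgfra2, so without Pdgfra1 its log2 ratio over pericyte-like cells was -4.80. Plvap was then at 1.46 CPM, under the minimum of 5 CPM and no longer called (1.24), while Ehd2 (-1.67) and Pacsin2 (1.02) passed 2-fold. With the Ephx3-led cells among the pericyte-like ones, the ratios of Cav2 and Ptrf were 0.24 and 0.55 and no longer past 2-fold. The lower gene was Ehd4, with 16.4 and 0.51 CPM on the fibroblast plates, against 85.8 to 112 CPM in pericyte-like cells (-2.44). Plates were apart for 7 of the 9 genes, as for 42.3% of all genes.

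Against endothelial-like cells, fibroblast-like cells had 1 gene called higher, Plvap, and 4 lower, where 41.5% of the 11654 genes counted were called in either direction, 24.5% higher and 17% lower. The lower ones were Sdpr (17.5 against 478 CPM, log2 ratio -4.69), Cav2 (59.5 against 531 CPM, -3.14), Ehd4 (16.6 against 80.6 CPM, -2.21) and Cav1 (207 against 471 CPM, -1.18). Ptrf (-0.99), Ehd2 (-0.72) and Pacsin2 (-0.49) were within 2-fold, and Prkcdbp had a positive ratio of 0.78 with plates apart. Without Pdgfra1 the ratios of Ehd2 (-1.62), Prkcdbp (1.79) and Ptrf (-1.06) were past 2-fold. With the mean of per-cell CPM, that of Prkcdbp was 1.30 and that of Ptrf -1.16. Plates were apart for 7 of 9 genes here and for 51.3% of all genes. Oligodendrocyte-like cells shared the plates of the fibroblast-like cells, and against them 6 of 9 genes were called higher, where 53% of the 11753 genes counted were called in either direction, 35.7% higher and 17.3% lower. Ehd2 (131 against 0.197 CPM, log2 ratio 6.79, within plates 6.21 to 6.51) and Ptrf (352 against 4.14 CPM, 6.10, within plates 4.88 to 8.35) differed most, and on both plates. Pacsin2 (1.12, within plates 0.34 to 2.49), Cav1 (2.08, 1.08 to 1.96), Cav2 (2.55, -2.75 to 2.05) and Plvap (4.78, 1.34 to 4.56) were the others. Cav2 had the opposite sign on plate Pdgfra2 (-2.75). Ehd4 was within 2-fold in pooled cells (-0.13), but ran over -2.93 to -0.89 within plates and was at -1.33 without mixed wells. Sdpr (-0.24) and Prkcdbp (-0.33) stayed within 2-fold on each plate. The classes were split differently over the plates, so pooled ratios also hold plate differences. The ratio of Pacsin2 was 0.43 without Pdgfra2, and Plvap was not called without Pdgfra1 (1.30, under 5 CPM). Plates were apart for 59.4% of all genes and for 5 of the 9.

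Cav1 in fibroblast-like cells rested on few wells. A read was found in 18 of 88 cells (20.5%, 95% exact binomial interval 12.6% to 30.4%), and 58.5% of its 12051 reads came from 3 wells, whereas Ptrf was read in 77 of the 88. Clustered again, the fibroblast-like cells fell into 5 sub-clusters with Cav1 levels from 0 to 708 CPM. The highest, 17 cells led by Cilp, Cldn1, Phex, Angptl1 and Nos3, had Cav1 in 8 cells, 230 CPM of Cav2 and no read of Ehd4 or Plvap. Its 8 endothelial markers summed to 116 CPM, within the 32.6 to 270.5 CPM of the other sub-clusters. A sub-cluster of 21 cells led by Nnat and Smpd3 had 209 CPM of Cav1 and 253 CPM of Ehd2, a further 21 cells from Pdgfra1 led by Car3 and Enpp6 had 54.0 CPM of Cav1, and 17 cells led by Col7a1 had 8.91 CPM of Cav1 and 1.81 CPM of Ehd2. The last sub-cluster, 12 cells led by Rgs4, Art3 and Rgs5, had 16514 CPM of pericyte markers, 10 mixed wells, no Cav1 read and 173 CPM of Plvap. Without these 12 cells, the other 76 had 241 CPM of Cav1, 9.53 CPM of Plvap and 9.15 CPM of Ehd4, and the log2 ratio of Cav1 over endothelial-like cells was -0.97.

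Plvap, the diaphragm protein, was read in 41 of all 3186 cells, with 3275 reads. In endothelial-like cells it was rare: 12 of 360 arterial-like (3.33%, 95% exact binomial interval 1.73% to 5.75%), 2 of 297 venous-like (0.673%, 0.0817% to 2.41%) and 7 of 781 capillary-like cells (0.896%, 0.361% to 1.84%) had a read. The share in oligodendrocyte-like cells was 1 of 150 or 0.667%, and its interval of 0.0169% to 3.66% holds the shares of all 3 zones. Those cells came from another line and other plates, so this comparison cannot decide whether any zone expressed Plvap above background. Where it was read, the level per cell could still be high: 7 capillary-like wells had 131 to 459.96 CPM, 12 arterial-like wells 2.46 to 351 CPM, while of the venous-like wells 1 had 243 CPM and the other 2 reads. None of these wells was called mixed. By plate, arterial-like cells had 1.40, 9.78, 0.868 and 2.19 CPM and capillary-like cells 5.496, 5.19, 0.683 and 0 CPM on EC3 to EC6, so both classes were higher on EC4 than on EC5 and EC6. Which zone held the wells with Plvap depended on the clustering: with all genes used, arterial-like cells had 6.98 CPM, against 1.02 CPM in capillary-like cells, and a log2 ratio of 1.98. At Leiden resolution 2, venous-like cells had 5.33 CPM, against 1.59 CPM in capillary-like cells. Pericyte-like cells had 13 reads of Plvap in 1 of 1050 cells, and the Ephx3-led cells none. For the latter the floor of 3 counts is 0.0665 CPM and the exact 95% Poisson upper limit 0.0818 CPM.

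Fibroblast-like cells had the highest Plvap level of the named classes, 32.2 CPM, from 11 of 88 cells (12.5%, 6.41% to 21.3%). By plate it was 35.8 CPM on Pdgfra1 and 1.53 CPM on Pdgfra2, against 0.578 to 5.36 CPM on the plates of endothelial-like cells. The log2 ratio over endothelial-like cells was 3.27, but Pdgfra2 lay within the endothelial range, and without Pdgfra1 the ratio was -0.49. Of the 1871 reads, 75.1% came from 3 wells, 2 of them in the sub-cluster with pericyte markers and 1 in the sub-cluster led by Nnat, and 2 of the 11 wells were called mixed. On Pdgfra1, the 10 wells with a Plvap read had 0 to 1565 CPM of summed endothelial markers (median 41.2, 2 wells at 0), against 0 to 506 CPM in the 49 wells without (median 20.7, 14 wells at 0). Their fibroblast markers had medians of 16318 and 19188 CPM. The part of RNA from other cells in these wells was not tested further.

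Cav1 and Plvap were never read in the same fibroblast-like well. Of 88 wells, 18 had Cav1 alone, 11 Plvap alone and 59 neither. On Pdgfra1 these counts were 15, 10 and 34, and over the 64 wells not called mixed they were 14, 9 and 41. Endothelial-like wells showed both genes together in places: of the 12 arterial-like wells with Plvap, 8 also had a Cav1 read. This lies beside a Cav1 read in 67.2% of all arterial-like wells and in only 20.5% of all fibroblast-like wells. The 2 classes thus differ in how often a joint well could be found. With 18 and 11 wells the absence of an overlap is a small count, and it is given as a description. The plot of fibroblast-like wells shows both arms.

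**Figure D4:**
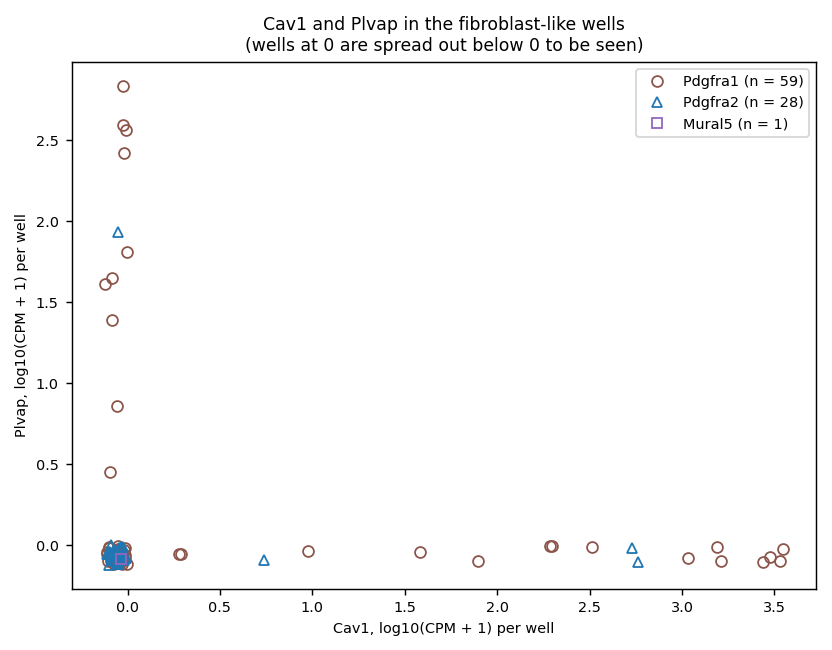
Level of Cav1 (horizontal axis) and Plvap (vertical axis) in each of the 88 fibroblast-like wells, as log10(CPM + 1), with wells at 0 spread below 0 to be visible (circles: Pdgfra1, 59 wells; triangles: Pdgfra2, 28 wells; square: Mural5, 1 well). The 18 wells with Cav1 lie along the horizontal axis and the 11 with Plvap along the vertical one, with none in between.

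Prkcdbp led the caveola genes of oligodendrocyte-like cells, though its level was not highest there. They had 139 and 168 CPM of it on Pdgfra1 and Pdgfra2, against 20.6 to 53.2 CPM on the plates of pericyte-like cells and 58.7 to 89.3 CPM on those of endothelial-like cells. Smooth muscle-like cells had more, 408 to 547 CPM by plate. Fibroblast-like cells had 109.9 and 265 CPM on Pdgfra1 and Pdgfra2. Prkcdbp was read in 78.0% of oligodendrocyte-like cells (70.5% to 84.3%), while Ptrf was read in 4.0%. Per kilobase it made up 73.0% of the 8 caveola genes there, and its ratio to Ptrf was 82.0, against 0.161 to 0.766 in the vascular classes. Whether reads of the overlapping Gm45667 are part of this level was not tested. In microglia-like cells Ehd4 led, with 399 CPM, and 498 CPM in the 11 wells not called mixed, where Cav1 had no read and Ptrf 0.142 CPM. Pacsin2 had 204 CPM in those 11 wells.

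Single cells differed in how many of the 8 caveola genes they held. The median was 5 genes with a read in smooth muscle-like, arterial-like and venous-like cells, 4 in capillary-like, 3 in fibroblast-like and 2 in pericyte-like cells, which became 1 in pericyte-like cells after thinning and stayed the same in the others. All 8 were read in 12 arterial-like, 7 venous-like, 2 capillary-like and 2 smooth muscle-like cells. None of the 8 was read in 93 pericyte-like cells (8.86%), 2 capillary-like cells and 1 fibroblast-like cell. Ptrf was read in 66 of the 98 pericyte-like wells with a Cav1 read, beside 58.8% of all pericyte-like wells, and in 18 of the 18 such fibroblast-like wells, beside 87.5% of all. In the smooth muscle and endothelial classes 94.2% to 100.0% of all wells had a Ptrf read, so a joint count carries little there. Among the vascular classes, Spearman's rho of Cav1 with Ptrf over wells lay between -0.02 in capillary-like and 0.27 in fibroblast-like cells.

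Across 32 pools of cells of 1 group on 1 plate, levels of the 9 genes paired in some cases and not in others. The pools are not of the named classes alone and include groups without a name. The values are a description, since the pools share plates and lines. Pearson's r of log2(CPM + 1) was 0.88 for Ptrf with Ehd2, 0.79 for Cav1 with Cav2 and 0.68 for Cav1 with Ptrf. Ptrf and Sdpr, both cavins, had r = 0.00, and Sdpr had -0.35 with Pacsin2. The 5 genes most like Cav1 over the same pools were Sorbs2 (0.86), an adaptor of the actin skeleton, Hip1 (0.84), a clathrin adaptor, Csrp2 (0.83), a LIM protein of smooth muscle, Cdkn1a (0.81), a cell cycle inhibitor, and Wfdc1 (0.81). Sorbs2 had 1650 CPM in smooth muscle-like, 393 in arterial-like and 3.56 CPM in pericyte-like cells. The 5 most like Plvap were Upk1b (0.74), Alox5ap (0.72), Cgn (0.69), Papss2 (0.69) and Eya4 (0.69), each at 49.1 CPM or less in fibroblast-like cells.

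Other genes of the caveola pathway moved with the members in some comparisons and not in others. Of 13 other caveola and neck genes counted between endothelial-like and pericyte-like cells, 3 were called higher and 7 lower (16.1% and 19% of all genes). The median log2 ratio of the list was -1.66, beside -0.10 for all genes. Nos3, the endothelial nitric oxide synthase that binds caveolin (370.4 against 1.53 CPM), the dynamin Dnm3 (141 against 0.176 CPM) and the insulin receptor Insr (967 against 277 CPM) were higher, while Pacsin3 (0.264 against 58.9 CPM), the flotillin Flot2 (9.94 against 109 CPM) and Ehd3 (31.8 against 231 CPM) were lower. In the EHD and pacsin families, Ehd3 and Pacsin3 were thus lower in endothelial-like cells while Ehd2, Ehd4 and Pacsin2 were within 2-fold. Between smooth muscle-like and pericyte-like cells 3 of 12 were called higher and 3 lower (12.9% and 17.5% of all genes). Higher were Flna, the actin crosslinker that tethers caveolae (9697 against 1175 CPM), Ehd1 (121 against 35.5 CPM) and the muscle caveolin Cav3. Lower were Dnm2 (81.6 against 184 CPM), Src (29.9 against 61.7 CPM) and Dnm1 (0.0771 against 17.3 CPM). The muscle forms Cav3 and Murc (Cavin4) were scarce everywhere, Cav3 at 6.07 CPM in smooth muscle-like and at or below 0.0403 CPM in the other named classes, and Murc at most at 4.89 CPM. Between smooth muscle-like and endothelial-like cells 8 of 13 were called higher and 4 lower (20.1% and 19.6% of all genes). The list's median log2 ratio was 1.06 there, beside 1.19 for the members. Between venous-like and capillary-like cells none of 11 was called (7.23% of all genes were), and the median was 0.27 for the list and for the members. Between arterial-like and capillary-like cells, Ehd1 was higher (69.4 against 31.0 CPM, log2 ratio 1.14), beside Ehd2. Of the 11 genes counted, 1 was called in each direction, as were 5.65% (higher) and 3.22% (lower) of all genes.

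Of 15 clathrin and transcytosis genes, 4 were called higher and 1 lower in endothelial-like than in pericyte-like cells, near the share of all genes called there (35.1% in either direction). Mfsd2a, the lipid transporter known to hold back caveolar transcytosis at the barrier, had 1105 CPM in endothelial-like cells, against 0.945 CPM in pericyte-like cells, and the transferrin receptor Tfrc 951 against 35.8 CPM. The endocytic receptor Lrp1 was lower (1.93 against 823 CPM). Within the endothelium Mfsd2a had 1046 CPM in arterial-like, 547 in venous-like and 1363 CPM in capillary-like cells. The log2 ratio of -1.32 made it lower in venous-like than capillary-like cells, while in arterial-like cells it was within 2-fold (-0.38), so its order of zones was capillary, arterial, venous. Tfrc was lower in arterial-like cells (317 against 1207 CPM in capillary-like cells, -1.93). Of the clathrin genes, the light chain gene Cltb was higher in endothelial-like cells (205 against 84.1 CPM in pericyte-like cells), while the light chain gene Clta (223 against 163 CPM) and the heavy chain gene Cltc (417 against 277 CPM) were within 2-fold.

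Of 9 genes known from fenestrated endothelium, 8 were matched in the files. Kdr, the receptor of vascular endothelial growth factor (627 against 1.72 CPM), was among 5 of 7 called higher in endothelial-like than in pericyte-like cells, where 16.1% of all genes were called higher. In arterial-like cells Cd24a was higher (83.1 against 9.81 CPM in capillary-like cells) and the apelin receptor Aplnr lower (0.0606 against 29.8 CPM). In fibroblast-like cells, where Plvap was highest, 4 of 8 were called higher and 1 lower than in endothelial-like cells (24.5% and 17% of all genes), with Igfbp5 at 1302 CPM against 0.733 CPM and Ppap2b at 1035 CPM against 22.1 CPM, and Kdr at 1.43 CPM against 627 CPM. Of 9 genes of the supply of cholesterol, which caveolae need, 2 were called higher and 5 lower in endothelial-like than in pericyte-like cells (16.1% and 19% of all genes): the exporter Abca1 (129.5 against 11.4 CPM) and the lipoprotein receptor Scarb1 (380.3 against 183 CPM) were higher, and the sterol synthesis enzyme Sqle (7.37 against 87.0 CPM) and its regulator Srebf2 (75.9 against 456 CPM) were lower. The plot of ratios brings the 9 members together over the comparisons.

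**Figure D5:**
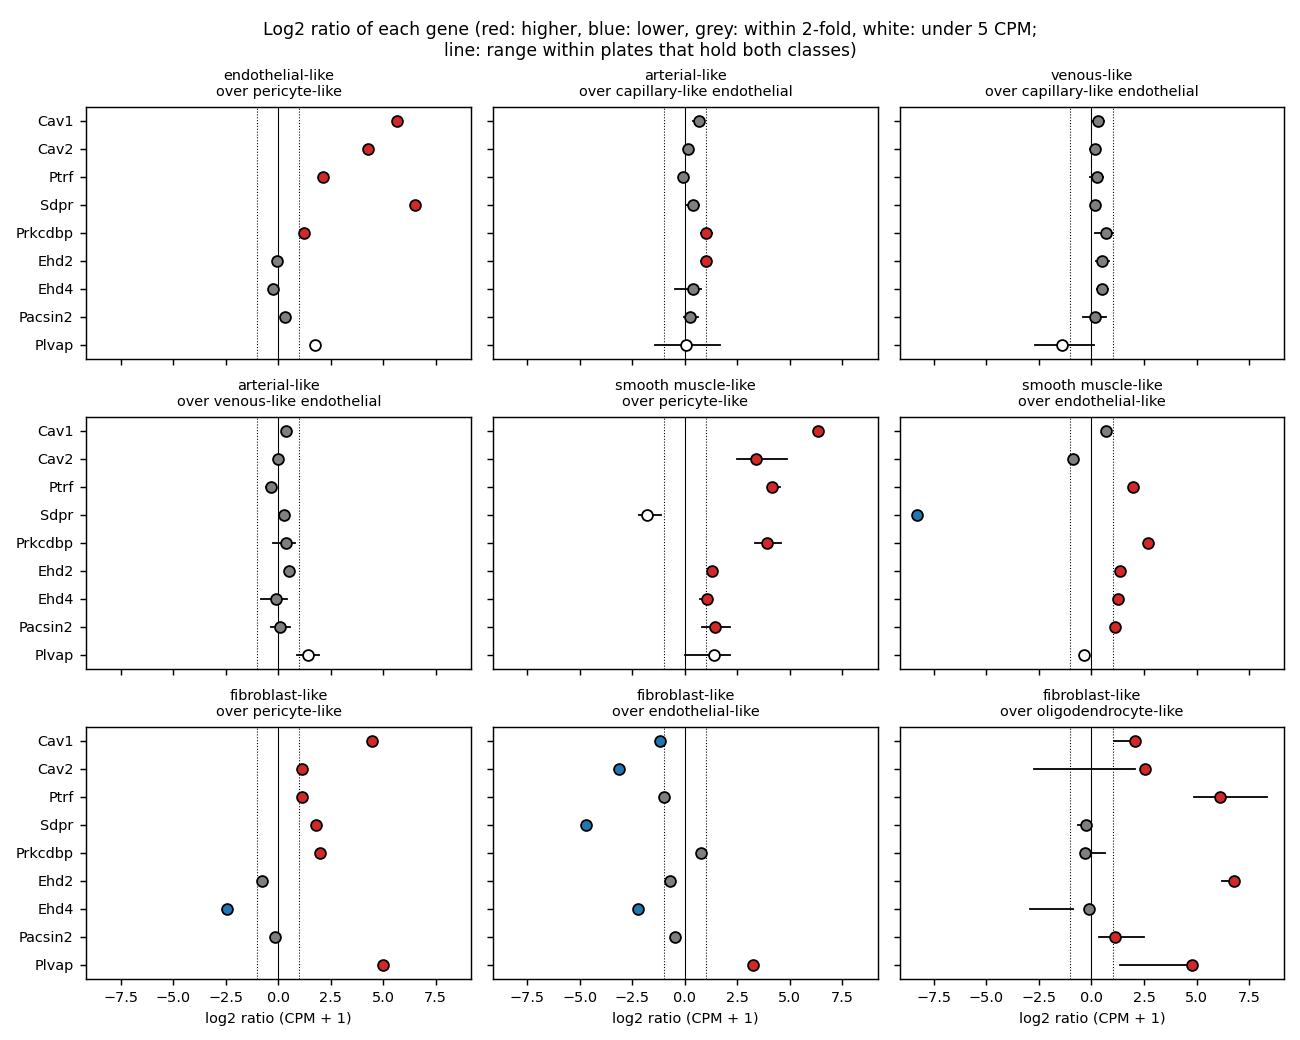
Log2 ratio (CPM + 1) of each of the 9 genes in 9 comparisons, with dotted lines at 2-fold (red: called higher; blue: called lower; grey: within 2-fold; white: under 5 CPM on both sides; black line: range within plates that hold both classes). Sdpr is at -8.29 in smooth muscle-like over endothelial-like cells and at 6.51 in endothelial-like over pericyte-like cells, while Ehd2, Ehd4 and Pacsin2 stay between -2.44 and 1.43 in the comparisons among vascular classes.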

How the data were processed

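Single cells were sorted by reporter into 384-well plates and sequenced by Smart-seq2, per the labels' protocols. STAR 2.4.2a and mm10 are named in the submitters' processing notes; the counter and annotation were not given in the sources used here. Deposited raw tables hold read counts for each gene in each cell, without molecular tags, and the authors' second tables hold a scaled score. The score was used in 1 alternative only. Every column was matched to 1 sample and 0 were left over.

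Cells with at least 500 genes (0 removed) were clustered on a seeded random 50% of genes without the members, list genes and reporters: 2000 most variable genes read in 1% of cells, 30 principal components, 15 neighbours, Leiden resolution 1. Endothelial, mural and fibroblast cells were clustered again. Clusters were named from 19 marker sets where over 50% of a set was high with at least 3 markers. A cluster stayed unnamed if at least 2 of its 10 leading genes, and more than from its own set, marked another class, or if pericyte or endothelial markers reached 10% of their level in that class. Mixed wells, 257 in all, reached 10% of another class's median marker sum; no doublet caller was used and they were kept. These 10% limits, and the rule that a leading gene is read in 25% of a cluster's cells, were chosen after seeing the data.

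Counts were pooled per class as CPM, with exact 95% intervals and floors of 3 counts, all for counting error only. Depth was 99905 to 1606954 reads per cell. For log2 ratios 1 CPM was added to each side, with a minimum of 5 CPM on 1 side, and plates needed 10 cells. With 1 sample per line there was no test. Thinning was to 99000 reads. Exon lengths were unions from GENCODE M21. Named genes were the 9 members, up to 3 genes at each end of a list with 20 CPM on 1 side, and the 5 most correlated with Cav1 and Plvap. Exoc3l2 was not matched, and Cav3, Murc, Dnm1, Clta and Cltc, outside this rule in part, were named after their values were seen. The members and lists were chosen with earlier results of these data known. The pooling was tested on simulated data. Tools were Python 3.11.15, numpy 2.4.6, scipy 1.17.1, pandas 2.3.3, scanpy 1.11.5, igraph 0.11.9 and matplotlib 3.10.9. Alternatives were the clustering resolution and genes, zones as equal parts of a marker score, scaling, pseudocount, minimum level, mixed wells and each plate in turn.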

Additional observations from a re-analysis of the deposited data

How the results depend on the processing

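Of 164 recomputed counts of members past 2-fold, 150 stayed within 1.5 times the reported count. For arterial over capillary-like cells (2 members) the count was 1 at Leiden resolution 0.5, 1 with all genes used to cluster and 1 with zones as equal parts of a marker score, where Prkcdbp and Ehd2 both lost the call and the gene counted was Plvap (1.30, 1.98 and 1.38), and 0 with a pseudocount of 10 CPM. With another random 50% of genes it was 2, with Plvap (1.78) in place of Ehd2. For venous over capillary-like cells (0 members) it was 1 at resolution 2 and 1 with no minimum level, the gene being Plvap in both. For arterial over venous-like cells (0 members) it was 1 at resolution 2, 1 with another random 50% of genes, 1 with all genes, 1 with no minimum level and 1 with zones from the marker score. No venous-like class formed at resolution 0.5, so the venous comparisons have no value there. Leaving out 1 plate at a time gave 5 to 5 members for endothelial over pericyte-like, 0 to 2 for arterial over capillary-like, 0 to 0 for venous over capillary-like and for arterial over venous-like, 6 to 8 for smooth muscle over pericyte-like, 6 to 6 for smooth muscle over endothelial-like, 6 to 8 for fibroblast over pericyte-like, 5 to 7 for fibroblast over endothelial-like and 5 to 6 for fibroblast over oligodendrocyte-like cells.

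Of 1467 recomputed ratios of single members, 1406 lay no further from the reported ratio than the spread between plates, and 58 lay further. This spread was the standard deviation of log2(CPM + 1) over plates, combined for both classes, and the 2-fold line had no part in it. The other 3, all called ones, changed sign without plate Pdgfra1. These were fibroblast-like Cav2 over pericyte-like (plates left out in turn -4.80 to 1.35), Plvap over endothelial-like (-0.49 to 3.70) and Cav2 over oligodendrocyte-like cells (-2.75 to 2.56). When clustering used other genes, most Ephx3-led wells joined the pericyte-like class and its Cav1 was 43.9 or 52.6 CPM; the calls of Prkcdbp (endothelial), Ehd4 (smooth muscle) and Cav2 and Ptrf (fibroblast) over pericyte-like cells then ended. Alternatives without the few-gene capillary cells, with Ephx3-led cells among pericyte-like cells and without the 12 pericyte-marked fibroblast-like cells were chosen after seeing the data. Pairs of member and class with reads in 50% of cells numbered 29 of 72, and 24 after thinning. No paired analysis was possible because each line is 1 sample and no test was fitted. Ratios within shared plates stand in the report as ranges. The few Plvap wells and the 2 plates of fibroblast-like cells limit what can be read from them.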

Other observations

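A group of 78 wells that clustered with endothelium and carried both endothelial markers (16747 CPM summed) and pericyte markers (7382 CPM), and that stayed without a name, had more Cav1 than any named class. Cav1 was at 1145 CPM in these wells, against 757 CPM in smooth muscle-like and 471 CPM in endothelial-like cells. On the 3 plates of the mural line with at least 10 of these wells it was 1486, 1018 and 1135 CPM, above the 691.7 to 844 CPM of smooth muscle-like cells. In the 46 wells of the group not called mixed it was 1272 CPM. Sdpr, which smooth muscle-like cells lack, was at 633 CPM, and Ehd2 was at 119.9 CPM, against 216 CPM in endothelial-like cells. The makeup of these wells was not tested.

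A smaller group of 31 mural wells with endothelial markers (5060 CPM summed) had 310.4 CPM of Cav1 and 167 CPM of Sdpr. In its 11 wells not called mixed these were 59.4 CPM and 15.7 CPM. A group of 18 wells with endothelial and oligodendrocyte progenitor markers had 331 CPM of Cav1, 179 CPM of Sdpr and 2 wells with a Plvap read.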
